A study of Mus musculus with 9 samples.

Results

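The chickpea arm of an adipogenesis time course was followed in 3T3-L1 cells, a clonal line of mouse fibroblasts which, once confluent, can be induced by a hormone mixture to store fat and become adipocytes. It consists of the 4 arrays whose titles name chickpea medium on days 2, 4, 6 and 8 and of the 1 array of day 0, that is 5 of the 9 arrays of the study. Day 0 is a confluent preadipocyte culture grown in 10% calf serum, with no inducer and no extract. Induction used 10% fetal bovine serum with insulin (5 µg/ml), dexamethasone (10 µM) and methylisobutylxanthine (0.5 mM) for 2 days, and serum with insulin for the next 6 days. The chickpea cultures received 0.5% chickpea extract in these media throughout. The other 4 arrays come from the same days without extract and are called control medium. A difference between chickpea medium and day 0 therefore combines the inducers, the change of serum, the days in culture and the extract. The array carries 321 genes related to metabolism and 9 control genes, and the comparison asks how far the expression programme of fat cell formation runs when the extract is present.

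Adipocyte formation is usually described as a relay. Methylisobutylxanthine, which keeps cyclic AMP high, and dexamethasone, a synthetic glucocorticoid, induce the early factors C/EBPβ and C/EBPδ, which switch on PPARγ and C/EBPα. These drive the genes of fatty acid uptake, lipid storage and hormone secretion that mark a mature fat cell, while preadipocyte factors such as Dlk1 and much of the fibroblast's extracellular matrix are turned down.

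Each medium and day is 1 array, so no condition has a replicate. Values are log2 fluorescence after quantile normalization over the 9 arrays, 1 value per gene. A floor of 3.39, the highest over the 9 arrays of the lowest value above the background limit, was applied, and a gene at the floor has only an upper bound. The share of metabolic genes above the limit was 63.6% on day 0 and between 62.6% and 65.1% in chickpea medium. In control medium it was 62.3% on day 2 and between 71.0% and 73.2% on days 4 to 8. The deposited values were scaled to Gapdh, a glycolytic enzyme. Its own signal was 9973 scanner units on day 0, between 13559 and 29464 in chickpea medium and between 15916 and 37338 in control medium. Relative to the values as deposited, quantile normalization moved the median gene: the median change from day 0 was 0.08 as normalized here, -0.81 as deposited and -0.50 after centring on the control genes. All changes below are relative to the typical gene.

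Chickpea medium changed genes in both directions, with more of them past the test as lower than as higher. On day 2, 41 of 247 genes that passed the filter on dim genes were at least 2-fold above day 0 (16.6%) and 37 were at least 2-fold below (15.0%). The numbers were 39 and 36 on day 4 (15.8% and 14.6%), 32 and 34 on day 6 (13.0% and 13.8%), and 27 and 31 on day 8 (10.9% and 12.6%). The order of these counts over days and the balance of directions depend on scaling: as deposited, the counts were 36 and 43 on day 2 and 7 and 134 on day 8, and with the control genes 21 and 57 on day 2 and 16 and 51 on day 8. In control medium the same counts were 36 and 35 on day 2 (14.6% and 14.2%), 30 and 35 on day 4 (12.1% and 14.2%), 38 and 49 on day 6 (15.4% and 19.8%) and 40 and 53 on day 8 (16.2% and 21.5%), and on all 4 control days 17 and 13 (6.88% and 5.26%). Both media are set against the same day 0 array.

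The genes at least 2-fold above day 0 on all 4 chickpea days numbered 11 of 247 (4.45%). They were Cd36, Fabp4, Pnpla2, Hsd11b1, Nampt, Pcx, Gk, Hk2, Slc2a1, Hmox1 and Mif. By their known functions most of these handle fatty acids, glycerol, glucose, glucocorticoid or oxidative stress. The array was built from genes related to metabolism, and the share of such functions over all its genes was not counted. Nampt serves NAD synthesis and Mif is a cytokine. Another 21 (8.50%) were at least 2-fold below on all 4 days, among them all 6 matrix genes that passed the filter. As deposited, the counts for all 4 days were 4 and 41, and with the control genes 3 and 34. In a limma fit of the 4 chickpea arrays against day 0, 14 of 226 tested genes passed an adjusted p of 0.05 (6.19%), 3 of them higher (1.33%) and 11 lower (4.87%). With the control genes the calls were 1 higher and 9 lower. At an unadjusted p of 0.05 the count was 51. The test asks whether the mean change exceeds its variation between days and assumes that the single day 0 array varies likewise. The other 21 filtered genes lay at the floor on day 0 and on every chickpea array and could not be tested.

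**Figure D1:**
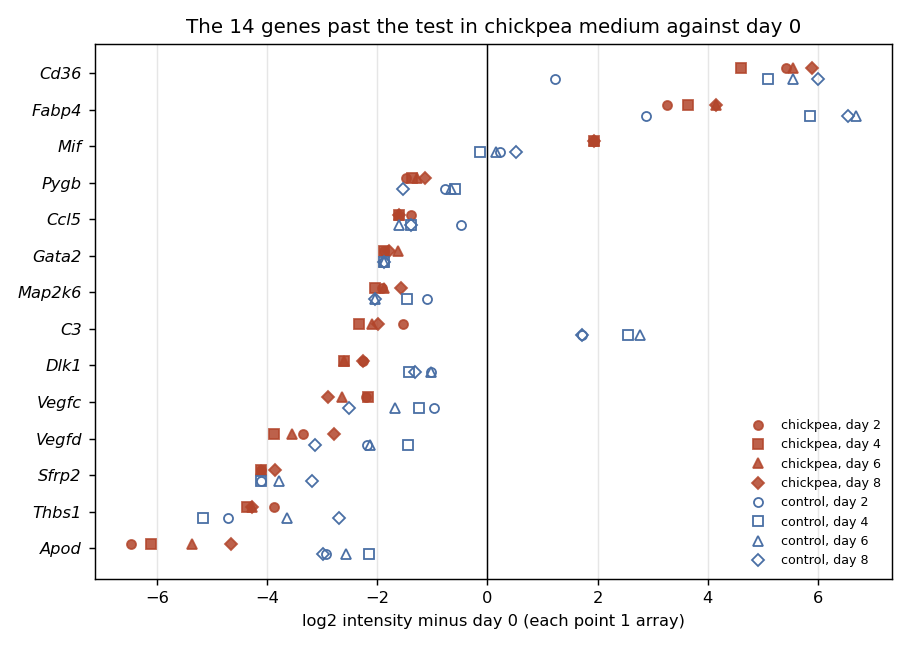
Log2 difference from day 0 (x axis) of the 14 genes that passed the test in chickpea medium; each point is 1 array, filled for chickpea medium and open for control medium, with 1 symbol per day. Cd36, Fabp4 and Mif lie to the right of 0 and the other 11 genes to the left on all 4 chickpea days; for C3 the control points lie on the opposite side.

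The calls depend on single days more than their directions do. Without the day 4 array Cd36, Sfrp2 and Thbs1 of the 14 passed, and without day 6 Sfrp2 and Thbs1 did, while 10 passed without day 2 and 8 without day 8. Under all 4 other scalings the 14 kept their sign, and 5 passed under every scaling: Cd36 as higher and Ccl5, Gata2, Map2k6 and Sfrp2 as lower. These 4 lower genes lay at or near the floor in chickpea medium, which can shrink their spread between days. With no floor applied, Ccl5 and Gata2 did not pass, while Cd36, Map2k6 and Sfrp2 did. Of the others, Fabp4 and Thbs1 passed under 4 of the 5 scalings, Apod, Dlk1, Mif and Vegfc under 3, Pygb and Vegfd under 2, and C3 under the quantile scaling alone.

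Of the 3 genes past the test as higher, the 2 with the largest mean increases, Cd36 and Fabp4, serve fatty acid transport. They were 2 of 9 tested genes of fatty acid uptake, binding and activation, beside 3 of 226 over all genes (1.33%). No other member of that list passed. As normalized here, the mean change was above 0 for 6 of the 9 and below 0 for 3. Cd36, the membrane receptor that brings long-chain fatty acids into adipocytes, was at the floor on day 0 and at 8.81, 8.00, 8.94 and 9.27 on days 2, 4, 6 and 8 of chickpea medium. It was high from the first time point on. Its mean rise was at least 5.37 ± 0.52 (SE, 4 arrays against 1; limma adjusted p = 0.0118), which is at least 41.3-fold. In control medium Cd36 stood at 4.61 on day 2 and then at 8.49, 8.94 and 9.39, so the media lay far apart on day 2 and within 0.5 of each other later. The mean difference between media, 0.90, did not pass the limma test with day as a block (adjusted p = 0.446).

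Fabp4, the fatty acid binding protein of the adipocyte cytoplasm, was at 6.39 on day 0 and at 9.65, 10.03, 10.55 and 10.55 in chickpea medium. All 4 chickpea values lay well above day 0, with a mean rise of 3.80 ± 0.43 (limma adjusted p = 0.0161, passing under 4 of 5 scalings). Control medium gave 9.27, 12.25, 13.09 and 12.94, that is a like value on day 2 and higher values from day 4. The difference between media was -1.69 and did not pass (limma adjusted p = 0.0876).

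Other adipocyte markers had intermediate values, were near the floor until day 6 or 8, or stayed at it. Of 13 adipocyte markers that passed the filter, 4 were at least 2-fold above day 0 on chickpea days 2, 4 and 6 and 8 on day 8; in control medium the counts were 9, 11, 12 and 13. Cd36 and Fabp4 were the members past the limma test in chickpea medium, of 9 that could be tested. The other 4 stayed at the floor with chickpea and on day 0. The filter counted all 9 arrays and could admit these 4 through control medium, where alone they left the floor. Adrb3 passed it on 2 control arrays. Comparisons of the 13 between media are therefore partly set by the filter. The median change over all 13 was 0.66 as normalized here, 0.05 as deposited and 0.26 with the control genes, with members at the floor on both sides counted as 0; that of all 247 filtered genes was 0.03, -0.70 and -0.38. In control medium the median of the 13 was 4.40. Of the 13, 6 were lower in chickpea than in control medium in the limma test with day as a block. Over all genes that test called 36 of 239 (15.1%), 21 higher (8.79%) and 15 lower (6.28%) with chickpea; as deposited the split was 1 and 6, and with the control genes 1 and 34. In bulk RNA fewer adipocytes and less RNA per adipocyte cannot be told apart.

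Pnpla2, the lipase that starts triglyceride breakdown, was at 5.73 on day 0 and at 8.37, 7.86, 7.39 and 7.54 with chickpea. Every chickpea value was more than 2-fold above day 0, yet the mean of 2.06 ± 0.43 did not pass (limma adjusted p = 0.0819). Lpl, which frees fatty acids from circulating triglyceride, was already at 10.36 on day 0 and at 11.20, 10.55, 11.02 and 11.85 with chickpea, against 13.28 on control days 6 and 8. Lipe, hormone-sensitive lipase, was at 4.26 on day 0 and reached 5.16, 5.36, 5.34 and 6.18 with chickpea, while control medium gave 8.05, 8.85, 9.08 and 9.33. For Lipe the groups did not overlap: it was lower with chickpea on all 4 days, with a difference of -3.32 in the limma test with day as a block (adjusted p = 0.00411). Acsl1, which activates fatty acids for storage, showed the same arrangement, with 5.31 on day 0, values between 5.95 and 6.71 with chickpea and values between 8.81 and 10.36 in control medium (difference -3.33, limma adjusted p = 0.0112).

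The markers at or near the floor include genes particular to a mature fat cell by their known roles. Adipoq, which encodes the hormone adiponectin, was at the floor on day 0 and on chickpea days 2 and 4, and stood at 3.73 on day 6 and 5.69 on day 8. Control medium gave 5.43, 10.18, 10.79 and 10.67 on the same days. Plin1, the coat protein of the lipid droplet, and Cfd, the secreted protease adipsin, left the floor with chickpea on day 8 alone, at 4.66 and 3.70. Their control values on day 8 were 7.90 and 11.42. Retn, which encodes resistin, Slc2a4, the insulin-responsive glucose transporter, Lgals12, a lipid droplet galectin, and Adrb3, the β3-adrenergic receptor, remained at the floor on day 0 and on all 4 chickpea days. On control day 8 they were at 9.56, 6.96, 6.33 and 5.74. Adrb3 was at the floor on control days 2, 4 and 6 too. Lep, which encodes leptin, was at the floor on all 9 arrays. Because the chickpea values are bounds, the limma differences between media are bounds too: -5.22 or lower for Adipoq (adjusted p = 0.0288), -6.52 for Cfd (adjusted p = 0.0173), -5.03 for Retn (adjusted p = 0.0256) and -3.14 for Plin1 (adjusted p = 0.0102). Those for Slc2a4, Lgals12 and Adrb3 did not pass (limma adjusted p = 0.0699, 0.114 and 0.374). None of the 36 calls between media persisted when the day 4 pair was left out, where Lipe, Pcx and C3 came nearest among the genes named here (adjusted p = 0.0501 for each).

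**Figure D2:**
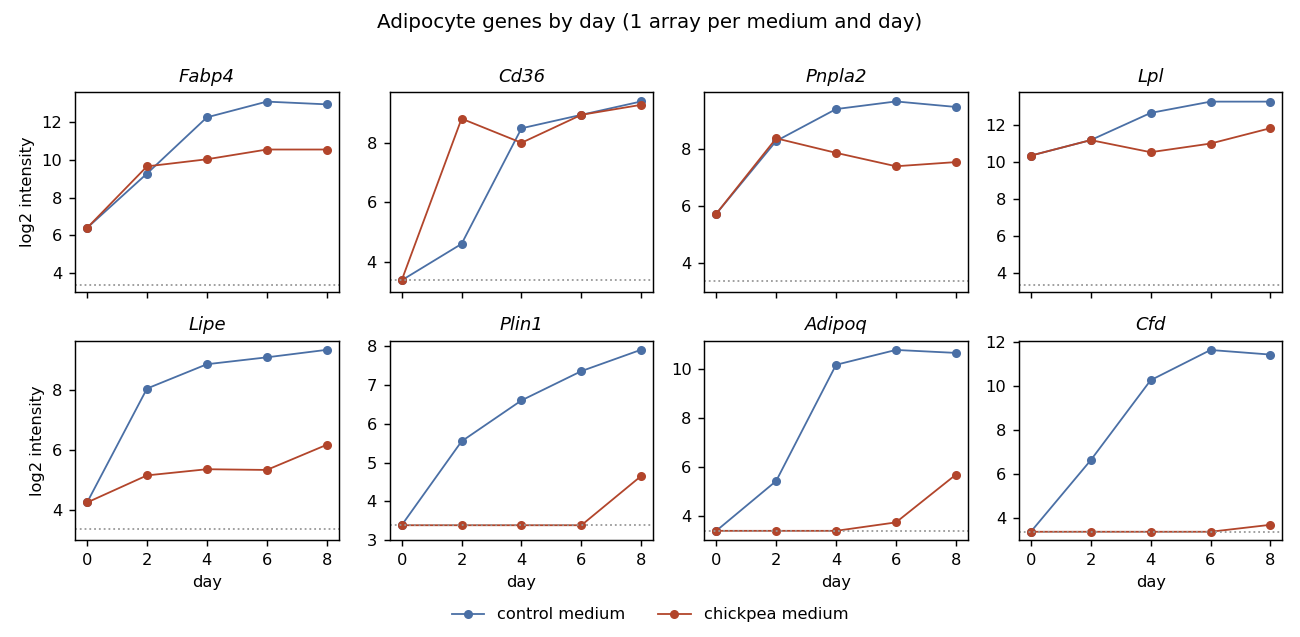
Log2 intensity (y axis) of 8 adipocyte genes by day (x axis) in chickpea and control medium, 1 array per point, with the shared day 0 array as the first point and the floor of 3.39 as a dotted line. Fabp4, Cd36 and Pnpla2 leave their day 0 level by day 2 in chickpea medium, while Adipoq, Plin1 and Cfd stay at or near the floor until day 6 or 8.

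The transcription factors of the relay followed different courses, and none passed the test against day 0 as normalized here. Cebpb, which encodes C/EBPβ, was at 9.71 on day 0 and at 11.85, 10.79, 10.36 and 10.18 with chickpea. The peak was on day 2, as in control medium, where the values were 11.63, 9.56, 9.21 and 9.27. Cebpd, its partner C/EBPδ, was at 4.15 on day 0 and at 3.60 on chickpea day 2, and at the floor after that. Control medium gave 4.80, 4.26 and 4.13 on days 2, 4 and 6 and the floor on day 8. With chickpea, Cebpd passed as lower than day 0 under 2 of 5 scalings, but not under the quantile scaling. Cebpa, for C/EBPα, was at 6.56 on day 0 and at 8.15, 7.18, 7.05 and 6.85 with chickpea, high on day 2 and near day 0 by day 8, against values between 8.05 and 8.33 in control medium.

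Pparg, the nuclear receptor at the centre of adipocyte gene control, was at 6.16 on day 0 and at 6.91, 6.36, 6.30 and 6.55 with chickpea. These values lie close to day 0 (mean change 0.37 ± 0.31, limma adjusted p = 0.534). Control medium gave 7.75, 8.03, 8.38 and 8.37, above chickpea on all 4 days (difference -1.60, limma adjusted p = 0.0248). Srebf1, a regulator of lipid synthesis genes, was at 5.65 on day 0 and between 5.62 and 6.03 with chickpea, and Klf15, a late factor of adipogenesis, stayed at the floor. As normalized here, none of the 8 tested factors passed against day 0 in chickpea medium. The sign of their mean change depends on scaling: 7 of 9 factors lay above day 0 as normalized here and none as deposited.

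Most preadipocyte and matrix genes that passed the filter lay below day 0 in chickpea medium. Sfrp2, a secreted modulator of Wnt signals, was at 7.50 on day 0, at the floor on days 2, 4 and 6 and at 3.64 on day 8. Its mean change was -4.04 or lower (SE 0.22, limma adjusted p = 0.00334) and passed under all 15 alternative settings. Gata2, a transcription factor that holds cells in the preadipocyte state, was at 5.27 on day 0 and at the floor, the floor, 3.64 and 3.48 with chickpea, a mean change of -1.80 or lower (limma adjusted p = 0.018). Both genes also passed as lower in control medium, where 7 of 230 tested genes passed (3.04%), 3 as higher (1.30%) and 4 as lower (1.74%). The control changes were -3.80 for Sfrp2 and -1.89 for Gata2, each a bound.

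Dlk1, the preadipocyte surface protein Pref-1 that blocks adipogenesis, was at 13.28 on day 0 and at 11.02, 10.67, 10.67 and 11.02 with chickpea. It fell by 2.44 on the log2 scale (SE 0.26, limma adjusted p = 0.0144, passing under 3 of 5 scalings). Control medium gave 12.25, 11.85, 12.25 and 11.97, all above the chickpea values, and the difference of -1.24 passed (limma adjusted p = 0.0173). Dlk1 was thus lower with chickpea than without it, although its loss is a feature of adipogenesis. Tcf7l2, a transcription factor of the Wnt pathway, was at 7.29 on day 0 and at 4.91, 5.27, 5.51 and 6.07 with chickpea, and Klf2, a further repressor of adipogenesis, was at 5.73 and then between 3.86 and 4.61; neither mean change passed. Of the 8 preadipocyte and Wnt genes that passed the filter, 5 were at least 2-fold below day 0 on each chickpea day and 3 passed the test. As normalized here, the mean change was below 0 for 7 of the 8 and above 0 for 1.

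All 6 extracellular matrix genes lay at least 2-fold below day 0 on every chickpea day, against 3 of 6 on every control day. This count for chickpea was the same under all 5 scalings. Thbs1, the matrix glycoprotein thrombospondin 1, was at 10.79 on day 0 and at 6.91, 6.42, 6.52 and 6.52 with chickpea, and fell by 4.20 on the log2 scale (SE 0.27, limma adjusted p = 0.00361, passing under 4 of 5 scalings). The 4 chickpea values lie within 0.5 of each other.

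The other matrix genes varied more between days and did not pass. Dcn, the collagen-binding proteoglycan decorin, was at 11.63 on day 0 and at 7.42, 7.45, 8.38 and 10.36 with chickpea, so it came back towards day 0 by day 8. Dpt, dermatopontin, went from 9.27 to 6.88, 4.14, 4.52 and 5.74, while control medium stayed between 8.11 and 8.94; the difference of -3.12 passed (limma adjusted p = 0.0363). Lox, the collagen cross-linking enzyme, was at 11.20 and then between 7.23 and 8.90, Thbs2 at 10.18 and then between 7.55 and 9.08, and Sparc, a collagen-binding glycoprotein, at 12.25 and then between 10.26 and 11.20. The median change of the list was -3.06 with chickpea and -1.63 in control medium.

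**Figure D3:**
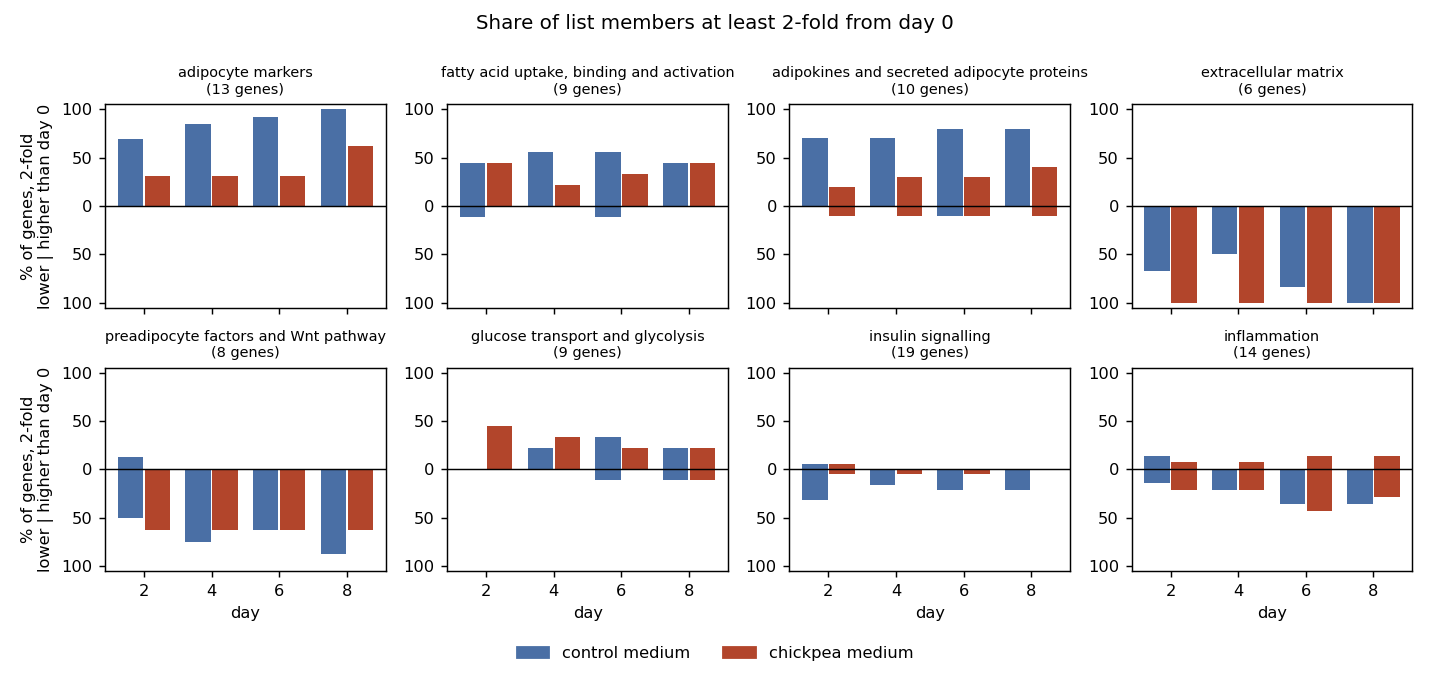
Share of list members (y axis, % of the members that passed the filter) at least 2-fold above day 0 (upward bars) or below it (downward bars) by day (x axis), for 8 gene lists in chickpea and control medium. All 6 matrix genes lie 2-fold below day 0 on each chickpea day, and 4, 4, 4 and 8 of 13 adipocyte markers lie 2-fold above it with chickpea, against 9, 11, 12 and 13 in control medium. Of these 13 markers, 4 left the floor in control medium alone.

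Secreted proteins went in several directions. Apod, the lipid-carrying apolipoprotein D, had the largest fall of any tested gene, from 11.42 on day 0 to 4.95, 5.31, 6.07 and 6.77 with chickpea, a mean of -5.65 ± 0.75 (limma adjusted p = 0.0211, passing under 3 of 5 scalings). Control medium gave values between 8.43 and 9.27, and the difference of -2.99 passed (limma adjusted p = 0.0173). Vegfd, a growth factor for lymphatic vessels, was at 9.04 on day 0 and at 5.69, 5.16, 5.50 and 6.24 with chickpea (-3.39 ± 0.45, limma adjusted p = 0.0211, a call made under 2 of 5 scalings). Vegfc, its close relative, was at 7.67 and then at 5.47, 5.50, 5.02 and 4.77 (-2.48 ± 0.37, limma adjusted p = 0.0261, a call made under 3 of 5). The blood vessel factor Vegfa did the opposite in its values, with 7.59 on day 0 and 10.36, 9.46, 9.46 and 8.45 with chickpea, but its mean change of 1.84 ± 0.72 did not pass (limma adjusted p = 0.219).

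C3, the central complement component and a secreted product of fat cells, was the member of the adipokine list that fell. It was at 9.08 on day 0 and at 7.55, 6.76, 6.99 and 7.09 with chickpea, a mean of -1.99 ± 0.35 (limma adjusted p = 0.0474). This call is at the edge of the threshold: C3 did not pass under the other 4 scalings, with changes between -1.63 and -2.67. In control medium it was at 10.79, 11.63, 11.85 and 10.79, above day 0 on all 4 days, so the media lay on opposite sides of day 0 with a difference of -4.17 (limma adjusted p = 0.0067). Hp, haptoglobin, stayed at the floor with chickpea and stood between 5.39 and 8.81 in control medium. Nampt, an enzyme of NAD synthesis also secreted by fat tissue, was at 6.71 on day 0 and at 8.68, 8.61, 8.15 and 7.86 with chickpea (1.61 ± 0.40, limma adjusted p = 0.124).

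Mif, the cytokine macrophage migration inhibitory factor, was the third gene to pass the test as higher with chickpea, beside Cd36 and Fabp4. It was at 10.03 on day 0 and held the same rank on all 4 chickpea arrays, which gives the single value of 11.97 after quantile normalization. Its rise was 1.94 ± 0.19 (limma adjusted p = 0.0118). The equal ranks make this standard error smaller than the spread of the signals: the rise was 2.06 with each array centred on its median and passed there, and it was 1.02 as deposited and 1.35 with the control genes, where it did not pass. Control medium gave values between 9.90 and 10.55, near day 0, and the difference between media of 1.75 passed (limma adjusted p = 0.0102).

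Mif and C3 are the genes called against day 0 in chickpea medium whose control values were near day 0 or beyond it on the other side, and their promoters are shown for that reason. The sequences come from RefSeq on GRCm38.p6 and span 250 bases before to 50 bases after the annotated start, both on the minus strand, Mif at chr10:75860228-75860527 and C3 at chr17:57228087-57228386. Capitals mark, on either strand, the cyclic AMP response element TGACGTCA and the relaxed C/EBP recognition pattern TTNCNNAA.
Mif: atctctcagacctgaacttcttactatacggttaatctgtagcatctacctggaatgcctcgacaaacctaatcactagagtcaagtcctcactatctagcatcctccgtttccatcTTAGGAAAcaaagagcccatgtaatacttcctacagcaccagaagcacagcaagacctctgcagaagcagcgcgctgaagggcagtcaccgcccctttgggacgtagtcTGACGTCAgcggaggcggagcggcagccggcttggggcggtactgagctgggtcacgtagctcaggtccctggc
C3: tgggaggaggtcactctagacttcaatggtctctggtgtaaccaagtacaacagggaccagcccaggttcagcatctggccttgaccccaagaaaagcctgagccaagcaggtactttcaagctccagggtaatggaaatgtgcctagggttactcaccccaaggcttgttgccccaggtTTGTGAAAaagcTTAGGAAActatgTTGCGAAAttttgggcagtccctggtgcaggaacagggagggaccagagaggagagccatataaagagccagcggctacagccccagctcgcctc
The Mif window holds 1 TGACGTCA, at position -24 from the start, and 1 match to the C/EBP pattern. The C3 window holds no TGACGTCA and 3 matches to the C/EBP pattern, at positions -70, -58 and -45. Of all 32851 mouse promoters of this length, 1.79% hold at least 1 TGACGTCA and 40.7% at least 1 TTNCNNAA, so the second pattern is common. Among 248 promoters of genes that passed the filter, 4 hold the first and 90 the second. The share of promoters with 3 matches was not counted. No binding was measured and a match describes letters alone.

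Some glucose and glycerol genes lay at least 2-fold above day 0 on all 4 chickpea days. As normalized here, they were 2 of 9 filtered genes of glucose transport and glycolysis. In the list of glycerol 3-phosphate and pyruvate carboxylase they were 2 of 4. Over all filtered genes the count was 11 of 247 (4.45%). The counts for the lists were 1 and 1 as deposited, and 0 and 0 with the control genes. Slc2a1, the general glucose transporter, was at 7.80 on day 0 and at 9.21, 9.33, 9.90 and 8.94 with chickpea. Hk2, the hexokinase that traps glucose in the cell, was at 5.18 and then at 6.52, 7.58, 8.09 and 7.55. Gk, glycerol kinase, was at 4.01 and then at 5.31, 6.99, 6.35 and 6.36. As normalized here, all 3 lay at least 2-fold above day 0 on every chickpea day. Their mean changes of 1.54, 2.25 and 2.25 did not pass (limma adjusted p between 0.124 and 0.141). In control medium Gk stood between 3.58 and 4.68, and the difference between media of 2.15 passed (limma adjusted p = 0.0337).

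Pcx, pyruvate carboxylase, which supplies lipid synthesis in fat cells, was at 5.91 on day 0 and at 7.24, 7.09, 7.20 and 7.78 with chickpea. Control medium reached 9.90, 9.46, 9.56 and 9.90, with a difference of -2.38 (limma adjusted p = 0.00411). Gpd1, which makes the glycerol backbone of triglyceride, was at the floor throughout chickpea medium and at 8.81, 9.27 and 9.04 on control days 4, 6 and 8. Pygb, a glycogen phosphorylase, fell from 8.57 on day 0 to 7.09, 7.20, 7.29 and 7.43 (-1.32 ± 0.23, limma adjusted p = 0.0464, passing under 2 of 5 scalings). None of the 5 fatty acid synthesis genes and none of the 7 oxidation genes that passed the filter passed the test; Fasn, fatty acid synthase, was at 7.35 on day 0 and at 6.07, 7.24, 7.78 and 7.99 with chickpea.

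Genes that respond to the inducers and to stress were also read. Hsd11b1, which reactivates glucocorticoid inside the cell, was at the floor on day 0 and at 7.72, 5.02, 5.73 and 6.50 with chickpea, at least 2.85 ± 1.05 higher with no pass (limma adjusted p = 0.211). Hmox1, the haem-degrading enzyme of the oxidative stress response, was at 9.56 and then at 10.79, 11.42, 11.42 and 10.79. Control medium put Hmox1 at 7.95, 8.23, 8.61 and 10.18, and the difference of 2.37 passed (limma adjusted p = 0.0363). Ppargc1a, the coactivator of mitochondrial genes, was at 5.39 on day 0 and at 6.81, 6.33, 5.80 and 6.46 with chickpea, while control medium was at the floor on days 2 and 4 and at 3.64 and 4.71 later (at least 2.57 higher with chickpea, limma adjusted p = 0.0141).

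Few signalling genes passed against day 0. None of 19 insulin signalling genes did, and their median change was 0.05, or -0.94 as deposited, where the median of all genes is lower too. The insulin receptor gene Insr was at 4.99 on day 0 and at 5.34, 5.74, 5.46 and 5.16 with chickpea, and Irs1, the receptor's substrate, was at 6.30 and then at 4.86, 4.91, 5.27 and 5.89. In control medium Insr lay between 3.73 and 4.52, and it is 1 of 6 insulin signalling genes that were higher in chickpea than in control medium (1.33, limma adjusted p = 0.0288). That count of 6 of 19 stands beside 21 of 239 over all genes (8.79%), and the 21 become 1 as deposited and 1 with the control genes. The difference for Insr did not pass under the other 4 scalings. None of 10 AMPK pathway genes passed against day 0. Map2k6, a kinase that activates p38, was the 1 of 12 Ras and MAP kinase genes to pass, from 5.43 to 3.51, the floor, 3.54 and 3.86 (-1.85 or lower, limma adjusted p = 0.0223).

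Of 14 inflammation genes that passed the filter, Mif passed as higher and Ccl5 as lower. Ccl5, a T cell chemokine, was at 4.99 on day 0, at 3.60 on chickpea day 2 and at the floor on the 3 later days (-1.55 or lower, limma adjusted p = 0.0211). Ccl2, the monocyte chemokine, was at 8.23 and then at 6.94, 6.17, 6.55 and 7.15, with no pass in chickpea medium (-1.53, limma adjusted p = 0.138) and a pass in control medium (-1.92, limma adjusted p = 0.0425); the media did not differ past the test (0.39, limma adjusted p = 0.173). Il6 was near the floor on every array. Markers of hepatocytes, skeletal muscle and pancreatic beta cells on the array were at the floor on day 0 and in chickpea medium, and no gene of the macrophage list was on the array.

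Within chickpea medium, the change from day 2 to day 8 was examined without day 0. A limma fit with day as a number gave 13 of 224 genes past the test (5.80%), 8 rising (3.57%) and 5 falling (2.23%), and 77 at an unadjusted p of 0.05. The steepest rise was that of Agt, angiotensinogen, at 6.41, 7.95, 9.08 and 9.65 on days 2, 4, 6 and 8 with chickpea (0.54 ± 0.06 per day, limma adjusted p = 0.027). It was near its day 0 level of 6.18 on day 2, whereas control medium started at 10.36 and ended at 8.68. Apod rose by 0.31 ± 0.04 per day after its initial loss. Ccnd1, cyclin D1, which drives entry into the cell cycle, was at 9.46 on day 0 and at 6.36, 7.40, 8.61 and 8.90 (0.44 ± 0.06 per day). Rab3il1, a regulator of vesicle traffic, was at 7.78 on day 0 and at 5.11, 5.69, 6.60 and 7.60 (0.42 ± 0.04 per day).

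Acat2, an acetoacetyl-CoA thiolase of sterol synthesis, had the same course, with 8.38 on day 0 and 5.39, 5.99, 6.77 and 7.24 later (0.32 ± 0.04 per day). Apod, Ccnd1, Rab3il1 and Acat2 were below day 0 on every chickpea day and lay nearest to it on day 8. Clu, the chaperone clusterin, was at the floor on days 2 and 4 and at 4.89 and 5.89 on days 6 and 8, so its slope of 0.45 per day is a lower bound. The steepest fall was that of Pdk4, the kinase that shuts pyruvate dehydrogenase, at 7.33, 6.53, 5.18 and 4.07 (-0.56 ± 0.05 per day, limma adjusted p = 0.0185), from above its day 0 level of 5.34 to below it. Pdha1, a subunit of the dehydrogenase that Pdk4 inhibits, fell as well, at 10.18, 9.65, 9.14 and 8.73 (-0.24 ± 0.04 per day).

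Bcl2l1, which encodes a survival factor, was at 9.14, 8.68, 7.86 and 7.24 (-0.33 ± 0.04 per day), and its day 8 value was the one nearest to day 0, at 7.33. Dusp4, a phosphatase of MAP kinases, was at 7.97, 7.60, 6.97 and 6.15 (-0.31 ± 0.04 per day) against 5.18 on day 0. These slopes rest on 4 arrays with 2 residual degrees of freedom: without day 6 no gene passed, without day 4 the counts were 20 rising and 22 falling, and no gene passed with each array centred on its median.

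**Figure D4:**
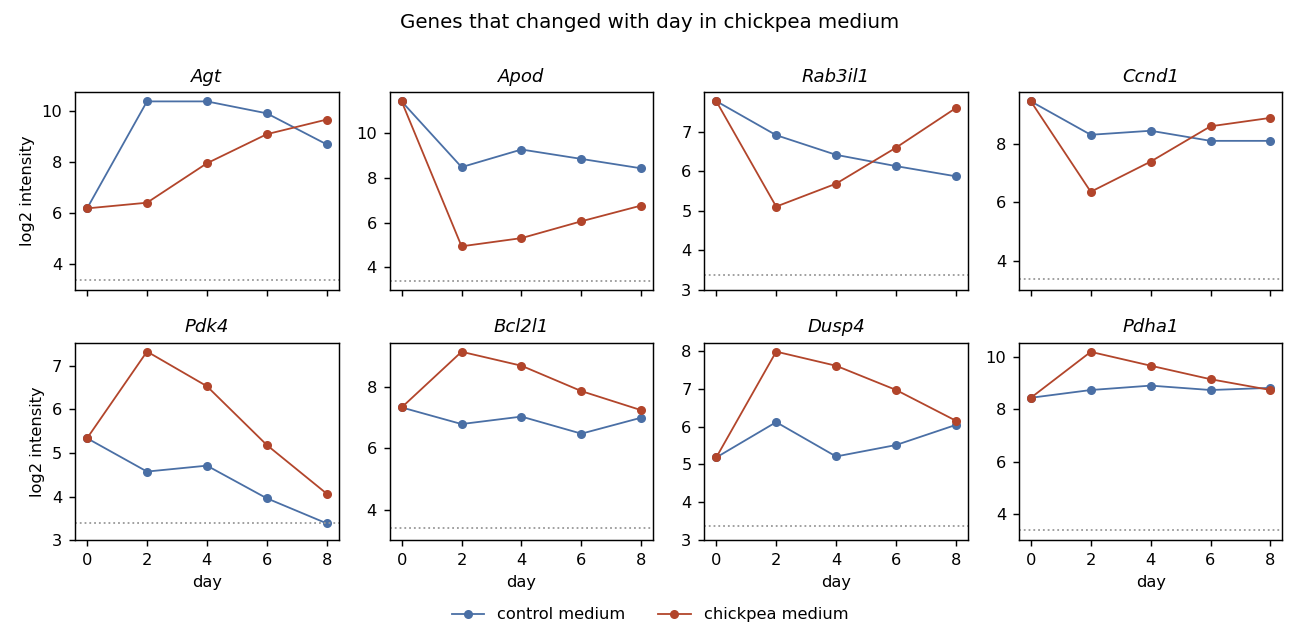
Log2 intensity (y axis) by day (x axis) of 8 genes that passed the test for change with day in chickpea medium, 1 array per point, with control medium beside it and the floor dotted. Apod, Rab3il1 and Ccnd1 drop below day 0 by day 2 and climb afterwards; Pdk4, Bcl2l1, Dusp4 and Pdha1 start above day 0 and decline.

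The course from day 2 to day 8 can also be set against that in control medium without any shared array. Over 188 genes above the floor on the 4 arrays concerned, the day 8 minus day 2 difference had an SD of 0.97 with chickpea and 1.22 in control medium. Across these genes, which are not independent replicates, Pearson's r was 0.0056 and Spearman's rho -0.010, which is no visible relation gene by gene. Genes at the floor on any of these arrays, such as Adipoq and Cfd, are not covered. Cd36 moved by 0.46 with chickpea and by 4.78 in control medium, whereas Agt moved by 3.25 with chickpea and by -1.68 in control medium.

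**Figure D5:**
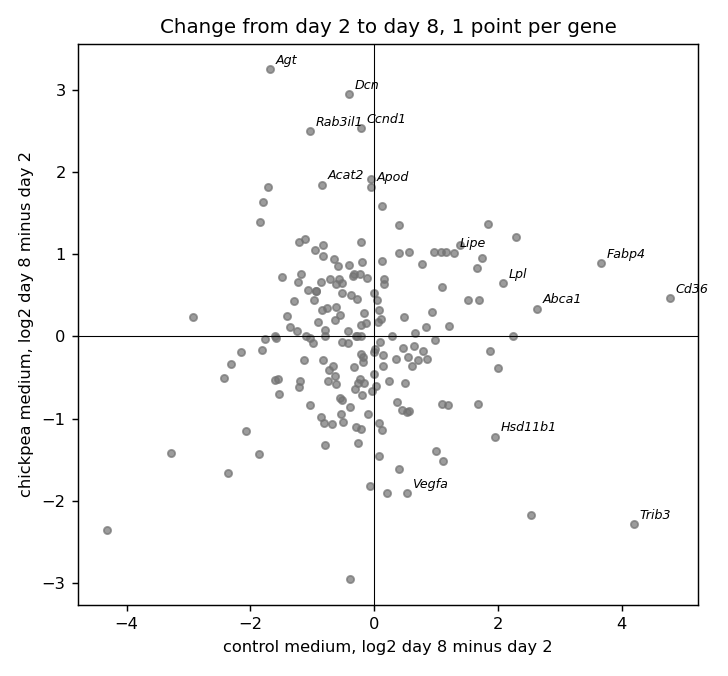
Log2 difference of day 8 minus day 2 in chickpea medium (y axis) against that in control medium (x axis) for 188 genes above the floor on the 4 arrays; each point is 1 gene. Genes lie in all 4 quadrants, and the spread over genes is 0.97 (SD) for chickpea medium and 1.22 for control medium.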

How the data were processed

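The submitters deposited intensity values of a 1-colour oligonucleotide array (Kurabo GeneSQUARE) read with a GenePix scanner. Compared with the scanner file, the deposited intensity of each row equals the median spot signal minus background plus a small constant, times a factor that brings the mean of the 4 Gapdh spots to 10000 in both spot sets; all 354 rows matched 1 spot within a relative tolerance of 1e-06, which named them. How the extract was prepared is not stated in the labels. Values were taken to log2, spots averaged per probe, the brightest probe kept per gene, and 330 genes quantile normalized over the 9 arrays. The background limit was 10 scanner units, exceeded by 3 of 369 blank and negative spots, and 247 genes above it on at least 2 arrays were kept. Genes equal on all arrays of a fit were left out.

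Differences were tested with limma 3.58.1 in R 4.3.3 (lmFit and eBayes, two-sided, Benjamini-Hochberg over all tested genes, threshold 0.05): chickpea against day 0 (3 residual degrees of freedom), slope per day in chickpea medium (2), control against day 0, and chickpea against control with day as a block (3). The fits were tested on simulated data. P-values measure the spread between days of single arrays, which may be technical; their number limits the precision. Members and gene lists were chosen with earlier results of these data known. Named genes are the 12 largest increases and decreases with 1 sign on all 4 days, the 6 largest slopes each way, up to 4 members per list and a fixed set of adipocyte, preadipocyte and metabolic genes; Pygb, Klf2, Sparc, Gpd1, Klf15, Lgals12, Adrb3 and Pdha1 were added after their values were seen, and 1 gene whose array name is shared by several genes is not named and 1 other is not reported here. Of the array's gene names, 13 were updated from older symbols. Alternatives covered scaling, the filter, the floor, the variance prior, the arrays in the fit and leaving out each day; leaving out control days and day pairs was chosen after seeing the data.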

Additional observations from a re-analysis of the deposited data

Results flagged for a closer look

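These genes differed in their change from day 0 between chickpea and control medium in the limma test with day as a block (3 residual degrees of freedom; the day 0 array cancels), each in the same direction on all 4 days. Lower with chickpea were Cfd by -6.52 (adjusted p = 0.0173), Adipoq by -5.22 (0.0288), Retn by -5.03 (0.0256), Hp by -4.37 (0.0182) and Plin1 by -3.14 (0.0102), all bounds because chickpea values lay at the floor. Retn and Hp were at the floor on day 0 and on all 4 chickpea arrays, so their chickpea values have no spread. The filter could admit both through control medium, where they were high, so their direction is partly set by it. Lower with measured values were C3 by -4.17 (0.0067), Acsl1 by -3.33 (0.0112), Lipe by -3.32 (0.00411), Dpt by -3.12 (0.0363), Apod by -2.99 (0.0173), Pcx by -2.38 (0.00411), Pparg by -1.60 (0.0248), Dlk1 by -1.24 (0.0173) and Vegfc by -0.88 (0.0474). Higher with chickpea were Ppargc1a by 2.57 (0.0141, a bound), Hmox1 by 2.37 (0.0363), Gk by 2.15 (0.0337), Mif by 1.75 (0.0102) and Insr by 1.33 (0.0288).

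Of these, Apod, C3, Cfd, Lipe, Pcx and Plin1 passed under all 5 scalings, Acsl1, Adipoq, Dlk1, Dpt, Hp, Pparg, Retn and Vegfc under 4, and Gk, Hmox1, Mif and Ppargc1a under 3. Insr passed under the quantile scaling alone. Apod, Dlk1, Dpt and Vegfc were below day 0 in both media and further below with chickpea. Each medium and day is 1 array, and the part of culture or hybridisation differences in these results was not tested.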

How the results depend on the processing

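Of the 14 calls against day 0, none changed sign under any of 15 alternatives, and Sfrp2 passed in all of them. The number of genes higher went from 3 to 1 with arrays centred on the control genes. The number lower went from 11 to 19 as deposited, 7 with the 75th percentile and 5 in the additive fit of 9 arrays; leaving out a chickpea day gave 0 to 4 higher and 2 to 9 lower. Slopes in chickpea medium went from 8 rising to 0 as deposited, 0 with the median and 1 with the control genes, and from 5 falling to 0, 1 and 1 with the median, 75th percentile and control genes; leaving out a day gave 0 to 23 rising and 0 to 22 falling. In control medium 3 higher became 1 as deposited, 1 with the median, 1 with the 75th percentile and 0 with the control genes, and 4 lower became 52, 2, 1 and 0; leaving out a day gave 0 to 27 and 0 to 45. Between media 21 higher became 1 as deposited, 1 with the control genes and 47 with no replicate block (day not paired), and 15 lower became 6, 34 and 26, and 23 with the 75th percentile; leaving out a day pair gave 0 to 45 and 0 to 26. Counts 2-fold above day 0 went, as deposited, to 8, 7 and 7 on days 4, 6 and 8, and below to 104, 141 and 134. With the control genes they went to 21, 10, 12 and 16 above and 57, 90, 73 and 51 below on days 2, 4, 6 and 8. The scanner signal of the control gene Gapdh, to which deposited values are scaled, differed between arrays. Its change from day 0 in chickpea medium did not pass the limma test under any setting. The cause of the moves between settings was not tested. No paired analysis was possible because day 0 is a single array for the comparison with it. Genes at the floor have bounds, which limits what dim signals can show.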

Other observations

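Some genes were highest on an early chickpea day and came nearer to day 0 by day 8; they enter no comparison above. Angptl6, a secreted angiopoietin-like protein, was at 4.59 on day 0 and at 7.54, 8.32, 6.97 and 5.36 with chickpea on days 2, 4, 6 and 8. Pck2, the mitochondrial enzyme that makes phosphoenolpyruvate, was at 7.92 and then at 9.90, 10.18, 9.39 and 8.38. Trib3, a pseudokinase of the amino acid stress response, was at 7.42 and then at 9.39, 8.85, 8.68 and 7.10, while in control medium it started at 4.75 on day 2 and ended at 8.94. None of the 3 passed the limma test against day 0 (adjusted p between 0.271 and 0.527) or that for change with day (adjusted p between 0.0596 and 0.122).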
